A study of Homo sapiens with 12 samples.

Results

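NFE2L2, which encodes the transcription factor NRF2, its inhibitor KEAP1 and 7 antioxidant targets (TXNRD1, SRXN1, GCLC, GCLM, SLC7A11, NQO1 and HMOX1) were followed in RNA-seq of 2 colon cancer lines. These 9 genes were chosen by name from the pathway, and TXNRD1 and GCLC had been noted for lower levels with actinomycin D (Act D) in 1 of the lines. Which line was not given. It was taken to be that labelled uL3Δ, in which both genes had the larger fall. All 9 were among the 15692 genes tested, of 33990 genes with any count. HCT 116p53-/- cells are a human colon cancer line lacking p53. The second line, uL3ΔHCT 116p53-/-, derives from it, is labelled HCT 116p53-/-RPL3 KO and is described in the methods as stably silenced for uL3, the ribosomal protein that RPL3 encodes. The p53-/- genotype is thus shared by all 4 groups. Each line received vehicle or 5 nM Act D, which at low dose inhibits RNA polymerase I, for 24 h, and each group had 3 libraries labelled as biological replicates. The labels and methods used here do not say whether the silenced line is 1 clone.

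NRF2 is kept low in unstressed cells because KEAP1 bridges it to a ubiquitin ligase that marks it for degradation. Oxidants and electrophiles modify KEAP1, and NRF2 then accumulates, pairs with a small MAF protein and binds antioxidant response elements at its targets. The targets supply cystine, make glutathione, drive the thioredoxin cycle and reduce quinones, and in colon cancer the pathway is known for its links to drug resistance. NRF2 is thus set largely at the protein level, which RNA-seq does not measure.

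The antioxidant response element has the core TGACNNNGC, in which N is any base. RefSeq promoter windows on GRCh38.p14, from 250 bases before to 50 after an annotated start, were at hand for 7 of the 9 genes, in 10 windows, with none for HMOX1 or SLC7A11. On either strand the core was in 13.3% of all 35116 promoter windows, and 3 of the 7 genes had one, in windows of GCLM, TXNRD1 and KEAP1. Some of the genes had a second window, so that the count of genes cannot be set against the share of windows. None of these cores overlapped TGANTCA, an AP-1 motif that was in 7.71% of all windows. The cores that lie wholly before the start are shown because they are where these windows match the element that NRF2 binds. Each is printed 5′ to 3′ on the gene's strand with the core in capitals, which reads as its reverse complement where the core is on the other strand.
GCLM, chr1:93909444-93909476, minus strand, core on the other strand at positions -34 to -26 from the start: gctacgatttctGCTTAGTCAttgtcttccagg
TXNRD1, first window, chr12:104215668-104215700, plus strand, core on the gene's strand at -99 to -91: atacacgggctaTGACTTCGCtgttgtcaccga
TXNRD1, second window, chr12:104286918-104286950, plus strand, core on the other strand at -102 to -94: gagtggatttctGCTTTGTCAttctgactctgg
KEAP1, second window, chr19:10502805-10502837, minus strand, core on the gene's strand at -54 to -46: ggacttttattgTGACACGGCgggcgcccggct
KEAP1, second window, chr19:10502782-10502814, minus strand, core on the other strand at -31 to -23: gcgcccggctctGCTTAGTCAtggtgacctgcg
The first TXNRD1 window held a further core that ran up to the start itself. A match is a description of letters, and binding was not measured.

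Library totals were between 10087925 and 21138886 counts. RPL3 itself did not differ past the threshold, at 1242 ± 82.5 CPM (counts scaled to a common library size by TMM, SD, n = 3) with vehicle in the line labelled uL3Δ against 1138 ± 15.3 CPM in the parent cells (log2 fold change 0.13, adjusted p = 0.15). Of 11 colon epithelial markers, 7 in HCT 116p53-/- cells with vehicle and 8 with Act D reached 1 CPM, against 5 in the libraries labelled uL3Δ, where CDH1 was at 0.445 and 0.325 CPM and CDX2 at 0.177 and 0.201 CPM. KRT18 went the other way, at 840 and 947 CPM there against 605 and 611 CPM in HCT 116p53-/- cells. KRT19 was at 36.6 and 34.9 CPM there against 609 and 629 CPM, and EPCAM at 35.5 and 39.2 against 153 and 170 CPM. Of 8 of these markers tested, 7 were lower and 1 higher there, in each treatment, where 71.3 and 70.4% of all genes passed. The summed level of the 11 was between 1606 and 1998 CPM in the libraries labelled uL3Δ and between 2525 and 2879 CPM in HCT 116p53-/- libraries. The summed level of 7 mesenchymal markers was between 50.8 and 89.1 CPM in HCT 116p53-/- libraries and between 2533 and 2865 CPM in the others, of which VIM made up 2237 CPM without and 2326 CPM with Act D. The mesenchymal markers CDH2 and TWIST1 averaged under 1 CPM in all 4 groups. The part of these differences in the results on the 9 genes was not tested. For 15 genes that were nearly absent from HCT 116p53-/- cells with vehicle and above 50 CPM in the libraries labelled uL3Δ, the HCT 116p53-/- libraries with Act D held a median of 0.640 to 0.810% of the level in the Act D-treated libraries labelled uL3Δ, against 0.0903 to 0.183% with vehicle. Its part in the results on the 9 genes was not tested. In bulk RNA, fewer cells that express a gene and less of its RNA per cell cannot be told apart.

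Per transcript length, NQO1 and TXNRD1 were the most abundant of the 9 genes in every group. NQO1, a quinone reductase, had a deposited TPM (the transcript level per length, by which genes can be compared) of 267 ± 23.5 (SD, n = 3) in HCT 116p53-/- cells with vehicle. TXNRD1, the cytosolic thioredoxin reductase, stood at 271 ± 40.7 TPM in the same group, and the libraries of both genes overlapped. With Act D, NQO1 was above TXNRD1 without overlap in both lines, at 275 ± 20.1 against 193 ± 8.91 TPM in HCT 116p53-/- cells and 121 ± 13.6 against 70.9 ± 6.31 TPM in the libraries labelled uL3Δ. The order was the other way in the libraries labelled uL3Δ with vehicle, with 177 ± 48.2 TPM for TXNRD1 and 112 ± 2.05 TPM for NQO1. TXNRD1 was noted for its fall between these 2 groups, so that nothing is read from the change of order in this line. At the low end were SLC7A11 in HCT 116p53-/- cells, with 7.60 ± 1.42 TPM with vehicle and 6.52 ± 0.330 TPM with Act D, and HMOX1 in the other line, with 4.88 ± 0.451 and 4.08 ± 0.305 TPM. NFE2L2 itself lay in the middle, at 30.9 ± 4.65 TPM in HCT 116p53-/- cells with vehicle, and in the Act D-treated libraries labelled uL3Δ its 13.5 ± 0.872 TPM overlapped the 13.1 ± 0.878 TPM of GCLC. With all transcripts of a gene summed, KEAP1 was above NFE2L2 in TPM in all 12 libraries.

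In the 1 library deposited per transcript, replicate 2 of HCT 116p53-/- cells with vehicle, single transcripts carried nearly all the TPM of 4 of the genes. NFE2L2-201 held 87.1%, SLC7A11-201 97.8%, HMOX1-201 98.6% and SRXN1-201 100% of the gene's TPM. The others were divided. The leading transcripts of NQO1 held 49.0% and 27.2% of its TPM, TXNRD1-204 33.2% of TXNRD1, KEAP1-201 41.6% of KEAP1, and GCLC-212 32.1% of GCLC. KEAP1-205, a retained-intron transcript of 451 bases, held 25.5% of KEAP1. KEAP1-201 alone was at 23.8 TPM, close to the 22.2 TPM of NFE2L2-201. This division rests on 1 library.

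The regulators came first in the comparison of the lines. In HCT 116p53-/- cells with vehicle, NFE2L2 (ENSG00000116044, chr2:177218667-177392756, minus strand, hg38) was at 92.9, 81.1 and 101.4 CPM in replicates 1 to 3, and in the libraries labelled uL3Δ it was at 73.4, 62.7 and 63.5 CPM. All 3 libraries of the second line were below those of the first. The fitted difference was -0.47 on the log2 scale, with a standard error of 0.10 and an adjusted p of 0.000641. Every adjusted p given here is from the quasi-likelihood test of edgeR, with the Benjamini-Hochberg method over the 15692 genes. KEAP1 (ENSG00000079999, chr19:10486125-10503558, minus strand) was at 109.7, 120.9 and 118.3 CPM in HCT 116p53-/- cells with vehicle and at 76.6, 59.2 and 57.1 CPM in the libraries labelled uL3Δ. The groups did not overlap, and KEAP1 was 1.81-fold lower in the second line (log2 fold change -0.86, standard error 0.11, adjusted p = 1.45e-06). NRF2's RNA and that of its inhibitor were thus both lower in the same libraries.

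**Figure D1:**
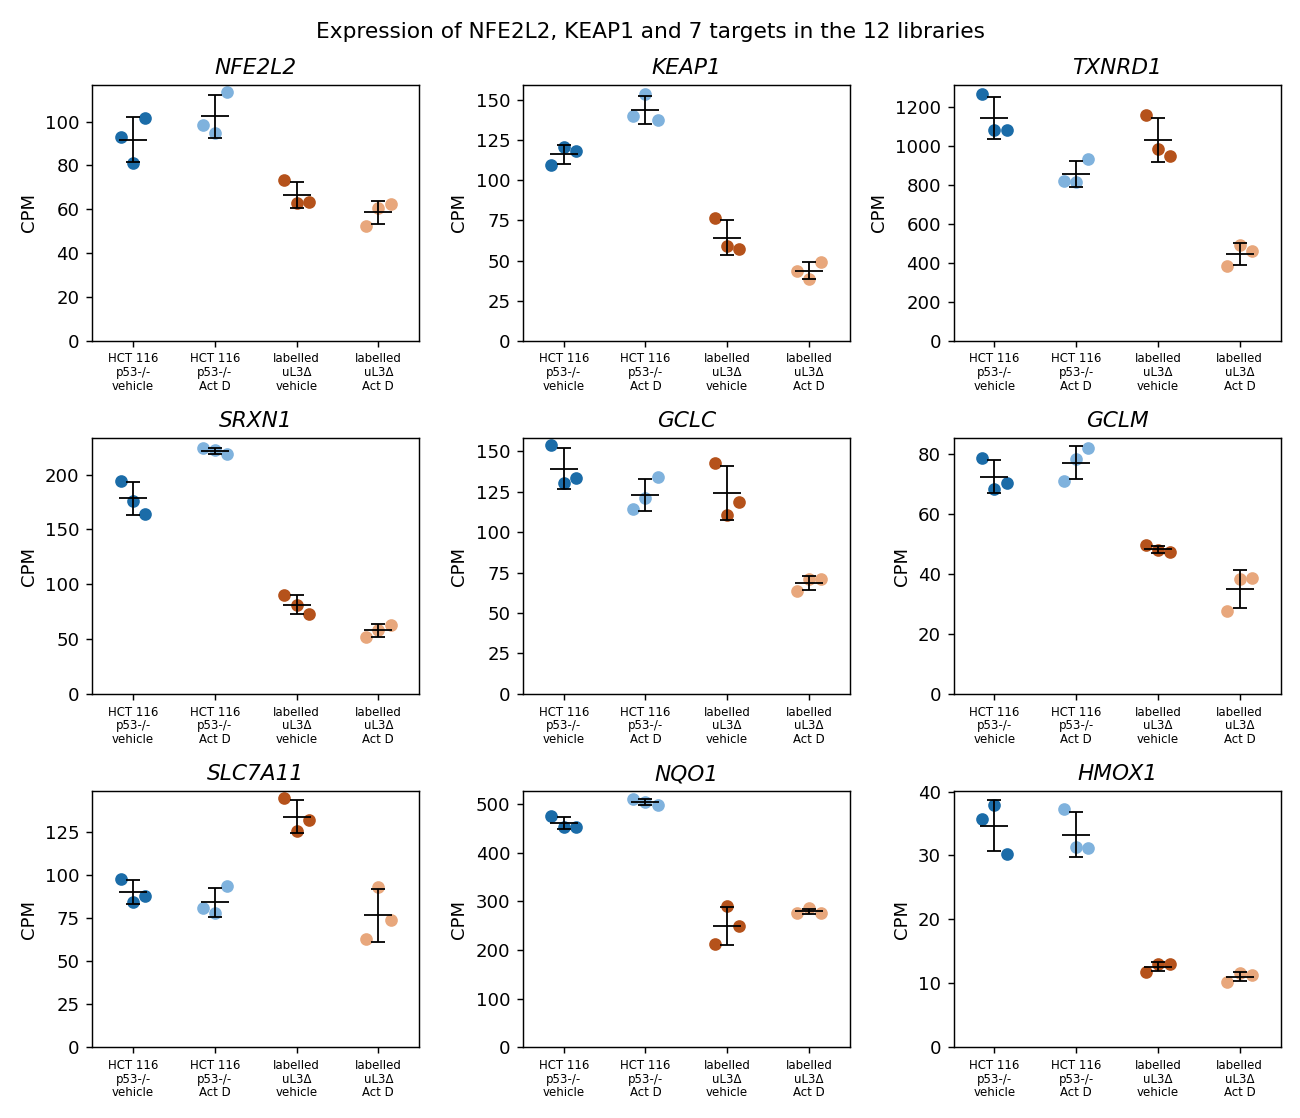
Expression of NFE2L2, KEAP1 and the 7 targets in CPM (y axis, linear, from 0) in the 4 groups of 3 libraries (x axis), with each library as a point, the group mean as a horizontal line and the SD as an error bar. NFE2L2, KEAP1, SRXN1, GCLM, NQO1 and HMOX1 are lower in every library labelled uL3Δ than in any HCT 116p53-/- library. TXNRD1 and GCLC are lowest in the libraries labelled uL3Δ with Act D, at 444 and 68.5 CPM on average, in which both were noted.

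Of the 7 targets, 4 were lower in the libraries labelled uL3Δ with vehicle, 1 was higher and 2 did not pass the test. With both regulators, 7 of the 9 genes passed, 1 higher and 6 lower, where 71.3% of all genes tested passed between the lines, 35.1% higher and 36.2% lower. A share of 7 in 9 is near that background. The groups did not overlap for the same number, 7 of the 9 genes, 1 higher and 6 lower, against 72.5% of all genes, 35.5% higher and 37% lower. The median log2 fold change of the 9 genes was -0.59, beside -0.02 over all genes tested. TXNRD1 and GCLC, the 2 that did not pass, are part of these counts and of the median. Both were noted for a fall from these vehicle-treated libraries labelled uL3Δ.

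HMOX1 (ENSG00000100292, chr22:35380361-35394214, plus strand), the inducible haem oxygenase, had the largest line difference with vehicle among the 9 genes. Its levels were 35.8, 37.9 and 30.3 CPM in HCT 116p53-/- cells and 11.8, 13.0 and 13.0 CPM in the libraries labelled uL3Δ. The second line was thus 2.74-fold lower (log2 fold change -1.45, standard error 0.12, adjusted p = 3.35e-09). SRXN1 (ENSG00000271303, chr20:646615-653200, minus strand), sulfiredoxin, which repairs over-oxidized peroxiredoxins, was at 194, 176 and 164 CPM against 90.6, 81.2 and 72.7 CPM. It was 2.19-fold lower (log2 fold change -1.13, standard error 0.10, adjusted p = 7.4e-09). Its counts carried the largest posterior standard deviation from RSEM among the 9 genes, 0.299 to 2.86% of the count, where the others had at most 0.195%.

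NQO1 (ENSG00000181019, chr16:69706996-69726668, minus strand) was at 476, 453 and 454 CPM in HCT 116p53-/- cells with vehicle and at 212, 289.7 and 248 CPM in the libraries labelled uL3Δ. The 3 libraries of the second line spread more than those of the first but did not reach them (log2 fold change -0.88, standard error 0.09, adjusted p = 1.32e-07). GCLM (ENSG00000023909, chr1:93885199-93909456, minus strand), the modifier subunit of the enzyme that makes the first committed step of glutathione synthesis, was at 78.8, 68.5 and 70.5 CPM against 49.6, 48.1 and 47.3 CPM (log2 fold change -0.59, standard error 0.11, adjusted p = 0.000113). GCLC (ENSG00000001084, chr6:53497341-53616970, minus strand), the catalytic subunit of the same enzyme, did not pass. Its libraries were at 154, 130.2 and 134 CPM in HCT 116p53-/- cells and at 142.7, 110.6 and 118.6 CPM in the libraries labelled uL3Δ, and they overlapped (log2 fold change -0.17, standard error 0.10, adjusted p = 0.145). TXNRD1 (ENSG00000198431, chr12:104215779-104350307, plus strand) overlapped between the lines as well, with 1269.7, 1083 and 1082 CPM against 1160.5, 985 and 950.2 CPM (log2 fold change -0.15, standard error 0.11, adjusted p = 0.214). The vehicle-treated libraries labelled uL3Δ are part of the fall for which GCLC and TXNRD1 were noted. A high level there would favour that choice, so that nothing is read from these tests of GCLC and TXNRD1 or their alternatives.

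SLC7A11 (ENSG00000151012, chr4:138164097-138242349, minus strand), the cystine importer xCT, was the 1 gene of the 9 that was higher in the libraries labelled uL3Δ with vehicle. Its levels were 144.8, 125.9 and 132 CPM there and 98.1, 84.6 and 88.2 CPM in HCT 116p53-/- cells, without overlap. The difference was 1.49-fold (log2 fold change 0.57, standard error 0.12, adjusted p = 0.00029). Scaling by library size alone moved the all-gene median by -0.24 between the lines. It kept the directions given here with vehicle and brought GCLC (-0.41, adjusted p = 0.0031) and TXNRD1 (-0.39, adjusted p = 0.00407) past the threshold. Over all alternatives the adjusted p was between 0.0031 and 0.479 for GCLC and between 0.00407 and 0.609 for TXNRD1. Without replicate 1 of the vehicle-treated libraries labelled uL3Δ, GCLC passed at -0.28 (adjusted p = 0.0162). Nothing is read from these values of GCLC and TXNRD1. The vehicle-treated libraries labelled uL3Δ are part of the fall for which both were noted.

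The lines with Act D include the libraries in which TXNRD1 and GCLC were noted, so that both genes are given as values only. TXNRD1 was at 820.7, 814.6 and 934 CPM in HCT 116p53-/- cells with Act D and at 383, 491 and 459 CPM in the libraries labelled uL3Δ, a log2 fold change of -0.95 (standard error 0.11). GCLC was at 114.5, 121 and 134 CPM against 63.5, 71.3 and 70.8 CPM, a log2 fold change of -0.85 (standard error 0.10). Neither gene overlapped between the lines with Act D, and both had overlapped with vehicle. That change restates the fall in the libraries labelled uL3Δ for which both were noted, and nothing is read from it.

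Of the other 7 genes, 6 were lower in the libraries labelled uL3Δ with Act D, where 70.4% of all genes passed in this comparison and 35.3% were lower. SRXN1 was at 224, 222 and 219 CPM in HCT 116p53-/- cells and at 51.9, 58.6 and 63.3 CPM in the other line, which was 3.84-fold lower (log2 fold change -1.94, standard error 0.10, adjusted p = 9.29e-12). KEAP1 stood at 139.9, 153.6 and 137.9 CPM against 43.6, 38.3 and 48.8 CPM, 3.30-fold lower (log2 fold change -1.72, standard error 0.11, adjusted p = 2.7e-10). For both genes every library of the second line was below every library of the first. HMOX1 was at 37.3, 31.3 and 31.1 CPM against 10.3, 11.5 and 11.4 CPM (log2 fold change -1.60, standard error 0.12, adjusted p = 2.34e-09).

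GCLM was at 71.1, 78.3 and 82.0 CPM in HCT 116p53-/- cells with Act D and at 27.6, 38.5 and 38.7 CPM in the libraries labelled uL3Δ, 2.23-fold lower (log2 fold change -1.15, standard error 0.11, adjusted p = 6.7e-08). NQO1 was at 511, 505 and 498 CPM against 276, 286 and 277 CPM (log2 fold change -0.85, standard error 0.09, adjusted p = 2.34e-07), and NFE2L2 at 98.5, 94.9 and 113.6 CPM against 52.4, 60.6 and 62.6 CPM (log2 fold change -0.81, standard error 0.11, adjusted p = 2.47e-06). Both genes were lower in the second line in every library. SLC7A11 no longer stood apart between the lines. Its levels were 81.0, 78.1 and 93.8 CPM in HCT 116p53-/- cells and 62.9, 93.3 and 74.1 CPM in the other line, which overlapped (log2 fold change -0.14, standard error 0.12, adjusted p = 0.312, between 0.0057 and 0.952 over the alternatives). Without replicate 2 of the Act D-treated libraries labelled uL3Δ it passed at -0.33 (adjusted p = 0.0178), and scaling by library size alone gave -0.39 (adjusted p = 0.0057). Of the 7 genes other than TXNRD1 and GCLC, the groups did not overlap for 6, each lower, against 74.1% of all genes, 36.5% higher and 37.6% lower.

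**Figure D2:**
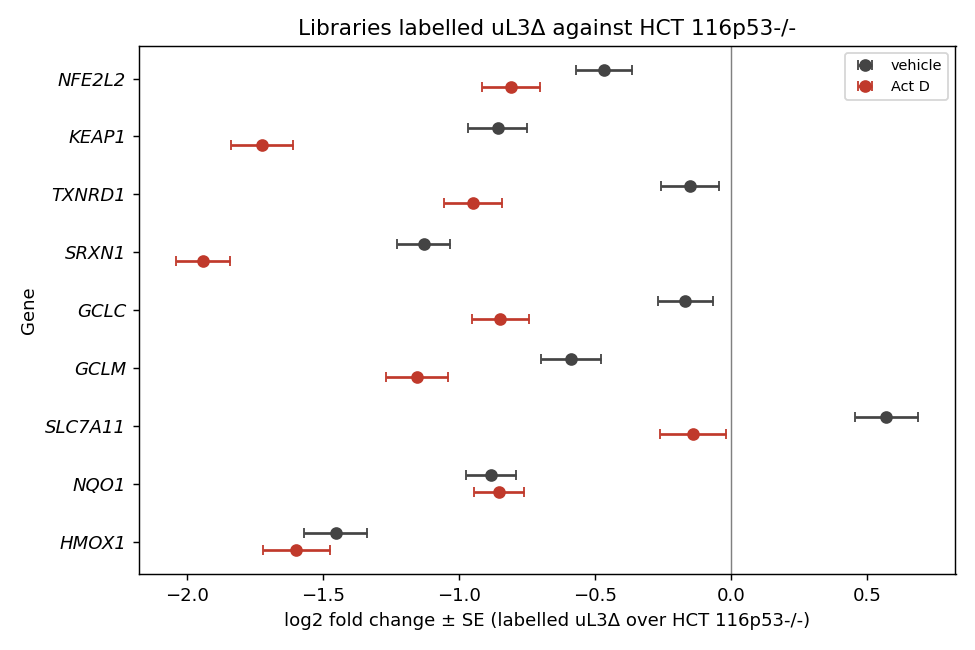
The log2 fold change of the libraries labelled uL3Δ over HCT 116p53-/- (x axis) for the 9 genes (y axis), with vehicle and with Act D, as points with the standard error as bars. SLC7A11 is at 0.57 with vehicle and at -0.14 with Act D, and NQO1 is at nearly the same value in both, -0.88 and -0.85. TXNRD1 is at -0.15 and -0.95, which restates the fall for which it was noted.

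In HCT 116p53-/- cells Act D lowered TXNRD1 and raised SRXN1, and the other 7 genes did not pass the test. That is 2 of 9, where 18.7% of all genes passed with Act D in this line, 7.59% higher and 11.1% lower. TXNRD1 was at 1269.7, 1083 and 1082 CPM with vehicle and at 820.7, 814.6 and 934 CPM with Act D. Every Act D library was below every vehicle library, a fall of 25.2% on average by the fit (log2 fold change -0.42, standard error 0.11, adjusted p = 0.0102). The call was lost without replicate 1 of the vehicle-treated or replicate 1 or 2 of the Act D-treated HCT 116p53-/- libraries, with log2 fold changes of -0.34, -0.39 and -0.38 and adjusted p between 0.0541 and 0.0557 (0.000228 to 0.0557 over all alternatives).

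SRXN1 was at 194, 176 and 164 CPM with vehicle and at 224, 222 and 219 CPM with Act D in HCT 116p53-/- cells, again without overlap. It rose 1.24-fold (log2 fold change 0.32, standard error 0.09, adjusted p = 0.0252). Leaving out replicate 2 or 3 of the vehicle-treated or any 1 of the 3 Act D-treated HCT 116p53-/- libraries ended that call, with log2 fold changes between 0.26 and 0.34 and adjusted p between 0.0574 and 0.112. Scaling by library size alone did so as well (0.21, adjusted p = 0.169, the highest over the alternatives, of which the lowest was 0.00752).

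KEAP1 was the nearest to the threshold of the rest in HCT 116p53-/- cells. It was at 109.7, 120.9 and 118.3 CPM with vehicle and at 139.9, 153.6 and 137.9 CPM with Act D, without overlap (log2 fold change 0.31, standard error 0.11, adjusted p = 0.0537, between 0.00866 and 0.281 over the alternatives). It passed in 8 alternatives, among them DESeq2 (adjusted p = 0.0274) and fits without replicate 1 of the vehicle-treated or replicate 2 or 3 of the Act D-treated libraries labelled uL3Δ (adjusted p = 0.015, 0.0438 and 0.0458). NQO1 did not overlap either, with 476, 453 and 454 CPM against 511, 505 and 498 CPM (log2 fold change 0.13, standard error 0.09, adjusted p = 0.364). TXNRD1, SRXN1, KEAP1 and NQO1 were the 4 genes without overlap in this comparison, 3 higher and 1 lower, against 38.2% of all genes, 18.2% higher and 20% lower. The remaining 5 genes had log2 fold changes between -0.18 for GCLC (standard error 0.10, adjusted p = 0.253) and 0.16 for NFE2L2 (standard error 0.10, adjusted p = 0.332). GCLM at 0.09, HMOX1 at -0.06 and SLC7A11 at -0.10, with standard errors of 0.11, 0.11 and 0.12, had adjusted p of 0.636, 0.776 and 0.615.

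In the libraries labelled uL3Δ the levels with Act D chose TXNRD1 and GCLC, so that all 9 genes are described there without a test. TXNRD1 was at 1160.5, 985 and 950.2 CPM with vehicle and at 383, 491 and 459 CPM with Act D, or 2.32-fold lower (log2 fold change -1.22, standard error 0.11). GCLC was at 142.7, 110.6 and 118.6 CPM against 63.5, 71.3 and 70.8 CPM, 1.81-fold lower (log2 fold change -0.86, standard error 0.10). The highest Act D library of each gene was well below its lowest vehicle library.

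SLC7A11 had a similar difference, with 144.8, 125.9 and 132 CPM with vehicle and 62.9, 93.3 and 74.1 CPM with Act D (log2 fold change -0.81, standard error 0.12). KEAP1 was at 76.6, 59.2 and 57.1 CPM against 43.6, 38.3 and 48.8 CPM (log2 fold change -0.56, standard error 0.11). SRXN1 was at 90.6, 81.2 and 72.7 CPM against 51.9, 58.6 and 63.3 CPM (log2 fold change -0.50, standard error 0.10). In all 3 genes the Act D libraries lay below the vehicle libraries. GCLM had 49.6, 48.1 and 47.3 CPM with vehicle, and of its 27.6, 38.5 and 38.7 CPM with Act D the first stood apart from the others (log2 fold change -0.48, standard error 0.12, and -0.33 without that library).

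The other 3 genes differed less. HMOX1 was at 11.8, 13.0 and 13.0 CPM with vehicle and 10.3, 11.5 and 11.4 CPM with Act D (log2 fold change -0.20, standard error 0.13), and NFE2L2 at 73.4, 62.7 and 63.5 CPM against 52.4, 60.6 and 62.6 CPM (log2 fold change -0.19, standard error 0.11). Their vehicle and Act D libraries were close without overlapping. NQO1 was the 1 gene whose libraries overlapped, with 212, 289.7 and 248 CPM against 276, 286 and 277 CPM (log2 fold change 0.16, standard error 0.09, and 0.28 without replicate 2 of the vehicle-treated libraries). The groups did not overlap for 8 of the 9 genes, each lower, in a comparison in which 27.6% of all genes did not overlap and 14.8% were lower. Nothing is read from this count, since it includes TXNRD1 and GCLC, which were noted in the same libraries.

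**Figure D3:**
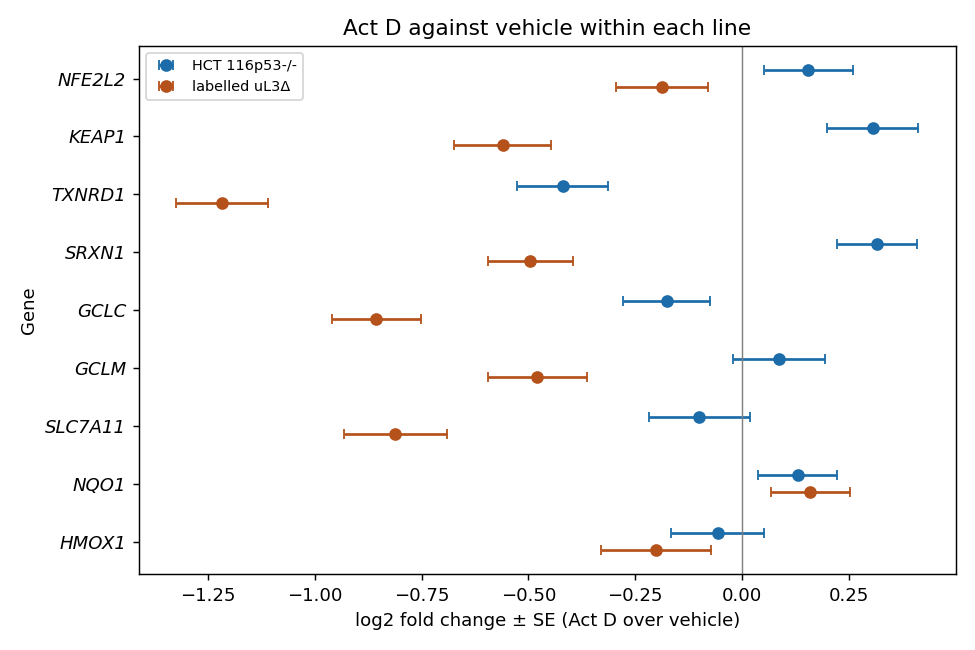
The log2 fold change of Act D over vehicle (x axis) for the 9 genes (y axis) in HCT 116p53-/- cells and in the libraries labelled uL3Δ, as points with the standard error as bars. In the libraries labelled uL3Δ 8 genes lie below 0, from -0.19 for NFE2L2 to -1.22 for TXNRD1, while in HCT 116p53-/- cells the points lie between -0.42 and 0.32.

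Whether the response to Act D differed between the lines was tested for the 7 genes other than TXNRD1 and GCLC. This comparison contains the Act D-treated libraries labelled uL3Δ and shares its groups with the comparisons above. For 4 of the 7 genes the response was lower in the libraries labelled uL3Δ, where 6.53% of all genes passed this test and 3.23% were lower. The difference of the responses was -0.81 on the log2 scale for SRXN1 (standard error 0.14, adjusted p = 0.00193), which was higher with Act D in HCT 116p53-/- cells and lower in the other line in 3 of 3 libraries each. It was -0.87 for KEAP1 (standard error 0.16, adjusted p = 0.00308), whose libraries lay in the same way.

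For SLC7A11 the difference of the responses was -0.71 (standard error 0.17, adjusted p = 0.0167), with a log2 fold change with Act D of -0.10 in HCT 116p53-/- cells and -0.81 in the other line. For GCLM it was -0.57 (standard error 0.16, adjusted p = 0.0389), from 0.09 and -0.48. The GCLM call did not hold without any 1 of 9 libraries, namely replicate 2 or 3 of HCT 116p53-/- with vehicle, replicate 1, 2 or 3 of HCT 116p53-/- with Act D, replicate 1, 2 or 3 of the libraries labelled uL3Δ with vehicle, or replicate 1 of those with Act D. The differences were then between -0.41 and -0.62, with adjusted p between 0.0504 and 0.0941 (0.00503 to 0.0941 over all alternatives).

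NFE2L2 missed the threshold, with a difference of -0.34 (standard error 0.15, adjusted p = 0.191). HMOX1 (-0.14, standard error 0.17, adjusted p = 0.681) and NQO1 (0.03, standard error 0.13, adjusted p = 0.934) did not pass. TXNRD1 and GCLC, given as values only, had differences of -0.80 (standard error 0.15) and -0.68 (standard error 0.15). The sign of the NQO1 value turned in 5 of the alternatives.

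The ratio of NFE2L2 to KEAP1, taken within each library from TPM, sets the RNA of NRF2 against that of its inhibitor. All transcripts of each gene are summed in it, also those that retain an intron. HCT 116p53-/- libraries had ratios from 0.446 to 0.599 with vehicle and from 0.405 to 0.503 with Act D. Those labelled uL3Δ had ratios from 0.545 to 0.708 with vehicle and from 0.757 to 0.925 with Act D. The 3 Act D-treated libraries labelled uL3Δ were above the other 9. Between the lines with Act D the exact two-sided permutation test gave p = 0.1, the smallest p that 3 against 3 can give. With vehicle the same exact permutation test gave p = 0.2 between the lines, and p = 0.4 for Act D in HCT 116p53-/- cells. The 3 tests are of 1 family, and none can fall under 0.05 in this design.

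The TPM ratio of GCLC to GCLM, the catalytic to the modifier subunit, spread widely within groups. It ran from 1.67 to 2.97 in HCT 116p53-/- cells with vehicle, from 1.62 to 2.24 with Act D, from 2.33 to 3.31 in the second line with vehicle and from 1.65 to 2.66 with Act D. Apart from HCT 116p53-/- cells with Act D against the libraries labelled uL3Δ with vehicle, any pair of groups overlapped. The highest HCT 116p53-/- value with vehicle came from the library deposited per transcript, in which GCLM was at 11.8 TPM against 20.3 and 23.2 TPM in the other 2 libraries of that group, while its CPM of 68.5 was close to their 70.5 and 78.8.

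**Figure D4:**
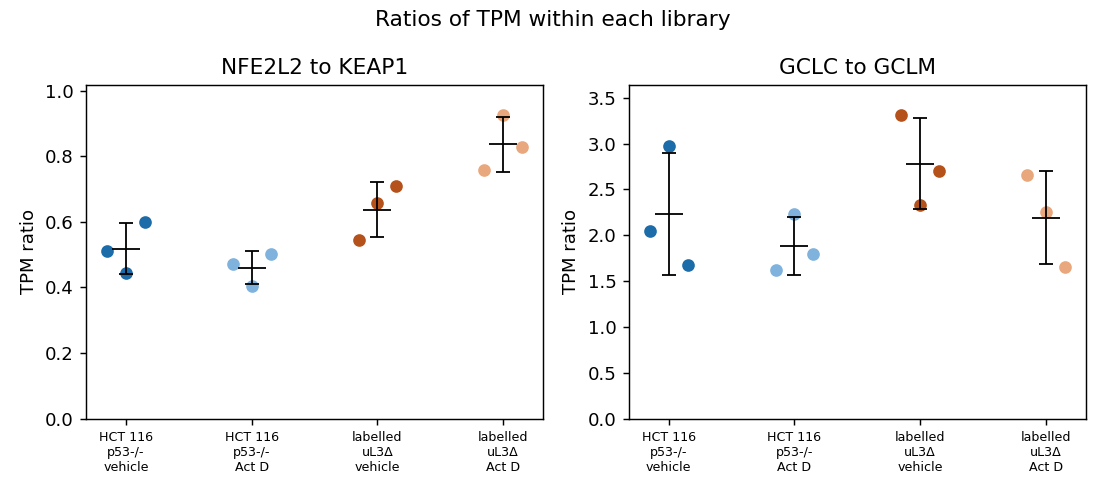
The ratio of NFE2L2 to KEAP1 and of GCLC to GCLM, from deposited TPM within each library (y axis, from 0), by group (x axis), with each library as a point, the mean as a horizontal line and the SD as an error bar. The Act D-treated libraries labelled uL3Δ have NFE2L2 to KEAP1 ratios from 0.757 to 0.925, above all other libraries, and the GCLC to GCLM ratios of most groups overlap.

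The genes whose profile over the 12 libraries was nearest to those of NFE2L2, TXNRD1 and GCLC were found by the root mean square difference of log2 CPM, each gene centred on its own mean. IPPK was nearest to TXNRD1 (0.118), followed by GCLC (0.169) and MCPH1 (0.169), where the median over all genes was 0.689. UBE3A (0.0856), CUL1 (0.0911) and PHRF1 (0.0935) were nearest to GCLC, beside a median of 0.583. KCNJ5-AS1 (0.0853), FAM91A1 (0.0896) and SUPT6H (0.0994) were nearest to NFE2L2, beside a median of 0.526, and the nearest of the other 8 genes was GCLM at 0.191. KCNJ5-AS1 is an antisense gene, and whether counting used the strand is not given in the sources used here. The 12 libraries share lines and treatments, so that a line difference alone brings profiles close. TXNRD1 and GCLC were both noted for low levels in the Act D-treated libraries labelled uL3Δ, which are among the 12, so that their closeness in part restates that choice.

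Beyond the 9 genes, 122 genes of the pathway were listed by role, and 115 were tested. With vehicle, the second line had 54 of them higher and 39 lower, or 80.9% beside 71.3% of all genes, and with Act D 47 were higher and 43 lower, or 78.3% beside 70.4%. Of 20 regulators of NRF2, 10 were higher with vehicle and 6 lower, or 80%. BACH1, a repressor that competes with NRF2 for the same elements, averaged 172 ± 21.5 CPM there against 37.3 ± 2.78 CPM (SD, n = 3) in the parent line, 4.63-fold higher (log2 fold change 2.21, standard error 0.10, adjusted p = 1.27e-12). MAFF, a small MAF protein, was 5.24-fold higher (log2 fold change 2.39, standard error 0.13, adjusted p = 1.2e-11). BTRC, a substrate receptor of another ubiquitin ligase that acts on NRF2, was 2.55-fold lower (adjusted p = 7.66e-09).

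The lists of enzymes moved in both directions between the lines with vehicle. The share that passed was 75% in iron and haem handling, 75% in the thioredoxin and peroxiredoxin system and 72.7% among NADPH-forming enzymes, near the 71.3% of all genes, and 83.3% in quinone and carbonyl reduction and 92.6% in glutathione synthesis and use. Of 27 tested genes of glutathione synthesis and use, 19 were higher and 6 lower in the second line. GGT1, a gamma-glutamyltransferase that cleaves glutathione outside the cell and has near copies in the genome, was at 11.3 ± 1.59 against 0.545 ± 0.431 CPM (log2 fold change 4.32, standard error 0.38, adjusted p = 1.36e-08), and GSTM3, a glutathione transferase, at 6.11 ± 0.974 against 0.477 ± 0.173 CPM (log2 fold change 3.67, standard error 0.38, adjusted p = 1.18e-07). Among the lower genes ABCC2, an exporter of glutathione conjugates, was at 6.62 ± 0.487 against 250 ± 6.61 CPM (log2 fold change -5.25, standard error 0.10, adjusted p = 5.56e-17). Of 12 genes of iron and haem handling, 2 were higher and 7 lower, with FTH1, the ferritin heavy chain, 3.22-fold lower (adjusted p = 7.5e-10). Of 18 genes of quinone and carbonyl reduction and conjugation, 9 were higher and 6 lower. AKR1B1, an aldose reductase, was 6.22-fold higher (adjusted p = 3.19e-14), and NQO2, a relative of NQO1, was 5.28-fold lower (adjusted p = 5.81e-12). Among 11 NADPH-forming enzymes, 4 were higher and 4 lower, with malic enzyme ME1 3.14-fold lower (adjusted p = 7.7e-10). Of 16 genes of the thioredoxin and peroxiredoxin system 7 were higher and 5 lower, and TXNRD2, the mitochondrial thioredoxin reductase, was 2.74-fold higher (adjusted p = 2.89e-08).

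Of 4 tested genes that remove superoxide and peroxide, 2 were higher and 1 lower with vehicle, 75% beside 71.3% of all genes. SOD3, the extracellular superoxide dismutase, was at 21.9 ± 2.68 against 0.0216 ± 0.0374 CPM (adjusted p = 7.72e-13), a level too near 0 in HCT 116p53-/- cells for a fold. CAT, catalase, was at 67.8 against 33.7 CPM (log2 fold change 1.01, standard error 0.13, adjusted p = 1.4e-06), and SOD1, the cytosolic superoxide dismutase, at 170 against 270 CPM (log2 fold change -0.67, standard error 0.09, adjusted p = 2.4e-06). Of 7 other targets, 1 was higher and 4 lower, or 71.4%. OSGIN1, an oxidative stress-induced growth inhibitor, was at 10.2 against 27.0 CPM with vehicle (log2 fold change -1.42, standard error 0.14, adjusted p = 4.62e-08) and at 9.09 against 37.5 CPM with Act D (log2 fold change -2.06, standard error 0.15, adjusted p = 7.12e-10).

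With Act D in HCT 116p53-/- cells, 19 of the 115 genes were higher and 11 lower, 26.1% beside 18.7% of all genes. In the thioredoxin and peroxiredoxin list of 16 genes 4 rose and 0 fell, or 25%, with 0 lower at an unadjusted p under 0.05 or by DESeq2. The sestrins, stress-induced proteins linked to peroxiredoxins, led it, with SESN2 rising 2.65-fold from 15.3 to 40.6 CPM (adjusted p = 1.45e-06), SESN1 2.43-fold from 9.56 to 23.2 CPM (adjusted p = 7.07e-06) and SESN3 1.84-fold from 3.31 to 6.09 CPM (adjusted p = 0.00176). PRDX1, a cytosolic peroxiredoxin, rose 1.21-fold (adjusted p = 0.0364). Of the 20 regulators 3 rose and 4 fell, 35% beside 18.7% of all genes. Among them were MAFF (log2 fold change 0.84, standard error 0.13, adjusted p = 0.000214), the NRF2 relative NFE2L3 (-0.89, standard error 0.10, adjusted p = 1.26e-05) and GSK3B, a kinase that marks NRF2 for degradation (-0.67, standard error 0.09, adjusted p = 4.79e-05).

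Of 12 genes of iron and haem handling, 4 were higher and 1 lower with Act D in HCT 116p53-/- cells, 41.7% beside 18.7% of all genes. ALAS1, the first enzyme of haem synthesis, was up 1.30-fold (adjusted p = 0.00542). Of 27 tested genes of glutathione synthesis and use 2 rose and 4 fell, or 22.2%. GPX1, a glutathione peroxidase, was at 70.8 against 52.8 CPM (adjusted p = 0.0188) and the conjugate exporter ABCC4 at 39.2 against 61.5 CPM (adjusted p = 2.43e-05). CBR1, a carbonyl reductase, was called higher, from 0.194 to 0.726 CPM, beside 43.7 CPM in the Act D-treated libraries labelled uL3Δ. Its level with Act D is above the 0.640 to 0.810% share given above, and the part of that share in its call was not tested. CBR1 is named for that share, though it falls outside the rule for naming genes.

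With Act D in the second line, 4 of the 115 genes were higher and 18 lower, 19.1% beside 11.9% of all genes. The regulators held 10 of the 18 that fell, with 1 higher, of 20 tested, where 8.4% of all genes were lower and 3.51% higher. CREBBP, a coactivator of NRF2, fell 1.94-fold from 52.3 to 26.8 CPM (adjusted p = 9.8e-05), GSK3B 1.65-fold from 78.6 to 47.6 CPM (adjusted p = 5.27e-05) and the small MAF gene MAFK 1.59-fold from 72.1 to 45.1 CPM (adjusted p = 0.000371). TRIM16, a ubiquitin ligase of the TRIM family, fell 1.61-fold (adjusted p = 0.00016), and so did its near copy TRIM16L among the other targets (log2 fold change -0.87, standard error 0.16, adjusted p = 0.00169), and reads of the 2 copies can be divided wrongly.

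Of 27 tested genes of glutathione synthesis and use, 3 were lower and 0 higher in these libraries (1 higher at an unadjusted p under 0.05 and 0 by DESeq2). That is 11.1%, near the 11.9% of all genes. CHAC1, which degrades glutathione, fell 2.92-fold from 24.3 to 8.15 CPM (adjusted p = 4.04e-05). SLC3A2, the heavy chain that pairs with SLC7A11 in the cystine importer, fell 1.40-fold from 465 to 332 CPM (adjusted p = 0.00487). No gene of quinone and carbonyl reduction, iron and haem handling or superoxide and peroxide removal passed in either direction with edgeR. At an unadjusted p under 0.05, 1 gene of the first list was higher and 2 lower, 2 of the second were higher, and 0 of the third differed, and DESeq2 called 1 gene, of the first list and lower. In the thioredoxin and peroxiredoxin list of 16 genes 2 rose and 2 fell, 25% beside 11.9% of all genes. SESN3 (log2 fold change 0.83, standard error 0.13, adjusted p = 0.000436) and TXN2, mitochondrial thioredoxin (0.64, standard error 0.14, adjusted p = 0.00575), were higher. SESN2 (-0.55, standard error 0.13, adjusted p = 0.0109) and TXNRD2 (-0.43, standard error 0.13, adjusted p = 0.0428) were lower.

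**Figure D5:**
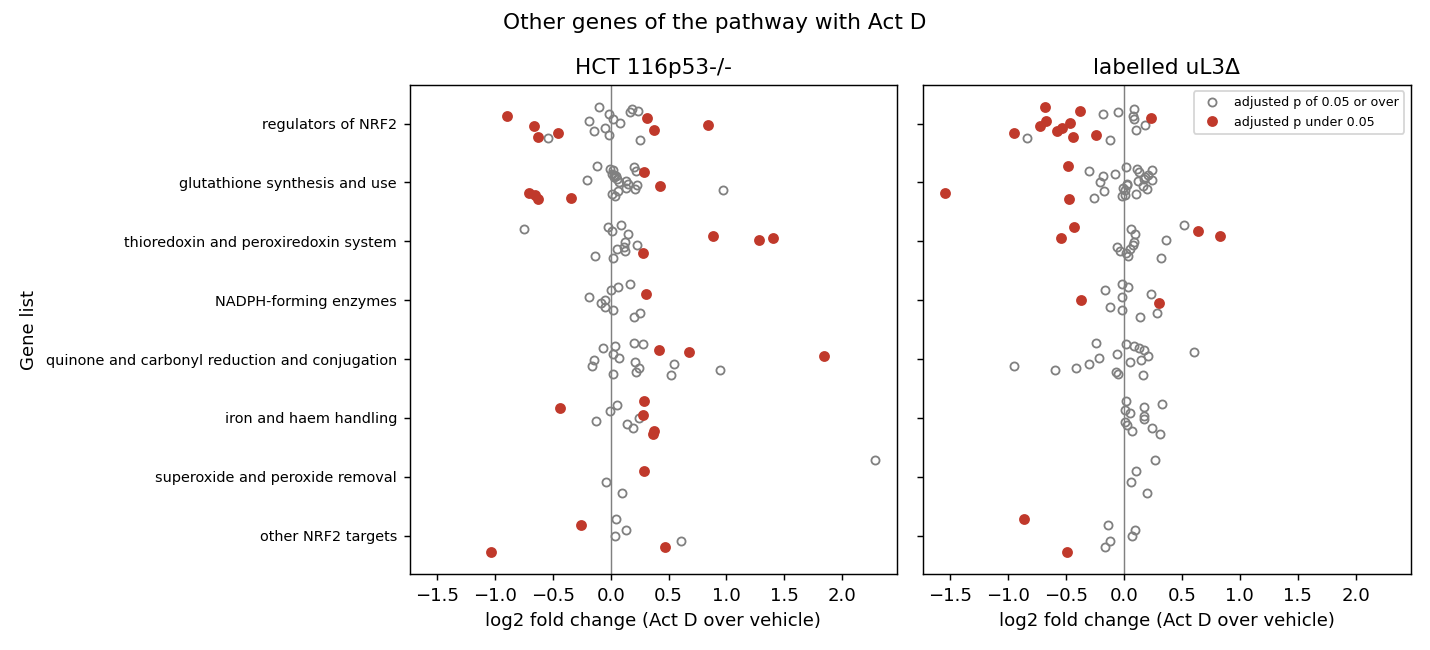
The log2 fold change of Act D over vehicle (x axis) for the other tested genes of the pathway by list (y axis), in HCT 116p53-/- cells and in the libraries labelled uL3Δ, each gene as a point, filled where the adjusted p was under 0.05. SLC40A1 is left out in HCT 116p53-/- cells, since it had no count there with vehicle, and 10 of the 20 regulators are lower past the threshold in the libraries labelled uL3Δ, where 8.4% of all genes were.

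The 2 responses to Act D differed for 13 of the 115 other genes, 2 with a higher and 11 with a lower response in the second line, 11.3% beside 6.53% of all genes. The largest difference among them was that of SESN2, at -1.95 on the log2 scale (standard error 0.19, adjusted p = 1.62e-05). The rule for naming genes did not cover this comparison, so that all 7 regulators that passed are named. NFE2L3 had a higher response in the libraries labelled uL3Δ (0.97, standard error 0.15, adjusted p = 0.000948). The response was lower there for MAFF (-0.66), the KEAP1-sequestering autophagy receptor SQSTM1 (-0.62), TRIM16 (-0.58), MAFG (-0.54), the coactivator EP300 (-0.48) and the ubiquitin ligase scaffold CUL3 (-0.44), with adjusted p from 0.0129 for TRIM16 to 0.0441 for EP300.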

How the data were processed

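RNA-seq libraries (TruSeq, paired-end) of 2 colon cancer lines with vehicle or 5 nM Act D for 24 h were compared, 3 per group. The authors trimmed reads, removed those from ribosomal RNA and other contaminants and used RSEM 1.2.25 to assign the rest to Ensembl genes on hg38. The deposited expected counts are not normalized, and the deposited TPM are scaled by RSEM for length and library total. For replicate 2 of HCT 116p53-/- cells with vehicle both are per transcript and were summed per gene. Expected counts were rounded to whole numbers, filtered with edgeR's filterByExpr by group (15692 genes left), scaled by TMM and fitted over all 12 libraries, with 1 coefficient for each group (edgeR 4.0.16, R 4.3.3), with the quasi-likelihood test and Benjamini-Hochberg adjustment at 0.05, and CPM were computed from the same libraries. A standard error is the log2 fold change divided by the root of the test's F. TPM were used for comparing genes with each other and for ratios of 2 genes within a library, and these ratios were compared between groups. Totals of 10087925 to 21138886 counts per library limit the counting precision, and the lowest level among the 9 genes was 10.3 CPM, of HMOX1. The tests were checked on simulated data.

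The 9 genes and the lists were chosen with earlier results of these data known. For Act D in the libraries labelled uL3Δ the 9 genes are given as values, with no test, and so are the line difference with Act D and the difference of responses for TXNRD1 and GCLC, because both were noted for their levels in these libraries. Both were tested between the lines with vehicle, where the libraries labelled uL3Δ are also part of that choice. From each list up to 4 genes a comparison could be named, those with the largest change among genes past the threshold, with groups that do not overlap and a higher group mean of 5 CPM or more. The text gives some of them. Of 160 symbols sought, SOD2 was not matched. Alternatives were DESeq2 1.42.0, library-size and upper-quartile scaling, no filter, a filter of 1 CPM or more in 3 libraries, a block for the replicate number, fits of only the 6 libraries compared, and each library left out. GENCODE v44 on hg38 gave names and coordinates, and promoter sequences from RefSeq on GRCh38.p14. The windows were searched on both strands with Python 3.11 and pandas 2.3.3, and permutation tests were run with scipy 1.17.1.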

Additional observations from a re-analysis of the deposited data

Results flagged for a closer look

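For 4 genes the response to Act D differed between the lines by the interaction term of edgeR's quasi-likelihood test, with the value as the response in the libraries labelled uL3Δ minus that in HCT 116p53-/- cells on the log2 scale. It was -0.87 for KEAP1, -0.81 for SRXN1, -0.71 for SLC7A11 and -0.57 for GCLM. The GCLM call was lost in 9 of the 12 fits that left out 1 library, with adjusted p between 0.0504 and 0.0941. TXNRD1 and GCLC were not tested, as their levels in the libraries labelled uL3Δ chose them. Each of the 4 differences includes the Act D response of that line, for which the 9 genes carry no test. Nothing is therefore read from the number of genes that passed.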

How the results depend on the processing

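The 9 genes gave 772 recomputed values under the alternatives, of which 730 kept their direction and side of the threshold, 14 passed newly, 20 no longer passed and 8 turned direction. The total includes Act D in the libraries labelled uL3Δ, which chose TXNRD1 and GCLC and carries no test here. Of its values, 63 without and 106 with a library left out kept both, 1 passed newly and 1 no longer passed. Nothing is read from those values. With Act D in HCT 116p53-/- cells 2 genes passed, 1 with scaling by library size alone and 0 to 3 with 1 library left out. With 1 library left out, the genes past the threshold numbered 7 to 8 of 9 for the lines with vehicle and, of the 7 other than TXNRD1 and GCLC, 6 to 7 for the lines with Act D and 3 to 4 for the difference of the responses. The values that turned were small. In HCT 116p53-/- cells with Act D they were -0.015 for GCLM with library size alone, and 0.011 and 0.00034 for HMOX1 without replicate 2 of the vehicle-treated and replicate 3 of the Act D-treated libraries, in a leave-one-out range of -0.15 to 0.011. The difference of the responses of NQO1 was -0.0097 without a filter, -0.012 without replicate 3 of HCT 116p53-/- with Act D, -0.079 without replicate 1 of the vehicle-treated libraries labelled uL3Δ, and -0.017 and -0.0027 without replicate 2 or 3 of those with Act D, in a leave-one-out range of -0.079 to 0.15. The cause was not tested. Correlations of same-numbered libraries were between -0.161 and 0.12 over 18 pairs, and in 5 of 36 cases a library correlated best with its own number, so that the numbers do not pair the libraries. With the replicate block 7 of 9 genes passed between the lines with vehicle and 2 of 9 with Act D in HCT 116p53-/- cells, as without it, and of the 7 genes other than TXNRD1 and GCLC 6 passed between the lines with Act D, again as without it, and 3 in place of 4 for the difference of the responses, where that of GCLM no longer passed (-0.56, adjusted p = 0.0639, between 0.00503 and 0.0941 over its alternatives). Over all genes the block gave 10964, 10818, 2469, 1502 and 722 calls against 11185, 11043, 2939, 1869 and 1025, in the order lines with vehicle, lines with Act D, Act D in HCT 116p53-/- cells, Act D in the libraries labelled uL3Δ and the difference of the responses.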
